A study of Mus musculus with 6 samples.

Results

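The authors' deposited table of genes that differ between microglial Piezo1 knockout and control 5×FAD mice, a model of Alzheimer's disease, lists 466 genes, and 42 of them are not protein coding. These 42 genes are every row whose class in the table is something other than protein coding. They fall into 10 classes, namely 10 lincRNAs (RNAs transcribed between coding genes), 7 antisense RNAs, 7 processed transcripts (noncoding RNAs of no closer class), 6 processed pseudogenes (reverse-transcribed copies of mRNAs), 4 TEC genes (gene models still to be experimentally tested), 3 sense intronic RNAs, 2 small nuclear RNAs, 1 miscellaneous RNA, 1 unprocessed pseudogene and 1 transcribed unprocessed pseudogene. Coordinates and class matched the GENCODE M21 annotation of the mouse genome GRCm38 for 42 of 42.

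RNA was taken from microglia, the resident macrophages of the brain, freshly isolated from adult mice, in 3 knockout and 3 control samples. Knockout animals were Cx3cr1CreER-EYFP; Piezo1fl/fl; 5×FAD and controls were Piezo1fl/fl; 5×FAD, both male littermates of the strain C57BL/6N. Every animal, control or knockout, carried the 5×FAD transgenes and the floxed Piezo1 alleles and was given tamoxifen at 20 mg/kg into the peritoneum on 4 days from an age of 4.5 weeks. Tamoxifen activates the Cre recombinase, which is driven from the Cx3cr1 locus, and deletes Piezo1, a mechanically gated cation channel, in microglia. The Cre allele is named for the knockout mice alone, so loss of Piezo1 and the allele itself cannot be told apart. The labels call the samples biological repetitions without a number of mice, and p-values here speak only of the spread among these 6 samples. Piezo1 itself was not analysed here, and the knockout labels were therefore not checked by it. Of 12 microglial markers only Cx3cr1 is listed, at 27906 to 35698 normalised reads in knockout and 58569 to 79363 in control samples.

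Long noncoding RNAs are transcribed and often spliced like mRNAs but carry no protein, and many are made at low levels and in few cell types. Some serve as host transcripts from which microRNAs are cut, short RNAs that pair with mRNAs through their seed, bases 2 to 8, and lower their output. Pseudogenes are copies of genes that have lost their coding role, and reads from a recent copy can be hard to tell from reads of its parent gene. Spliceosomal small nuclear RNAs and the 7SK RNA are short structured RNAs that lack the poly(A) tail by which these libraries were enriched.

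Several microRNA gene models lie inside the spans of the 42 genes. All 5 hosts of a microRNA on their own strand are listed as lower in the knockout, as are 88.0% of all 466 listed genes, and 0 of the 28 genes listed as higher hold one. Dnm3os (chr1:162217623-162225550, plus strand) holds Mir199a-2 and Mir214 in its exons. 3110039I08Rik (chr9:41327077-41716994, plus strand) holds Mir100, Mirlet7a-2 and Mir125b-1 in introns, and Rian (chr12:109603940-109661716, plus strand) holds Mir341, Mir1188, Mir370 and the predicted Gm23912 in introns. Mir124a-1hg (chr14:64587331-64593961, plus strand) holds Mir124a-1 and Mir3078 in its exons, and Gm15816 (chr8:23138794-23149585, minus strand) holds Mir3107 in an intron. The mature sequences of the main arms, from RefSeq with GRCm38.p6 coordinates, are shown because they are what these hosts can give rise to; capitals mark the seed, and no seed is shared between the 15 arms found there. Mature microRNAs themselves were not measured.
mmu-miR-199a-5p, chr1:162217844-162217866 (+): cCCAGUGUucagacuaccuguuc
mmu-miR-199a-3p, chr1:162217883-162217904 (+): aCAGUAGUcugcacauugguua
mmu-miR-214-3p, chr1:162223438-162223459 (+): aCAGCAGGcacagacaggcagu
mmu-miR-100-5p, chr9:41531437-41531458 (+): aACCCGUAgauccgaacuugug
mmu-miR-125b-5p, chr9:41581940-41581961 (+): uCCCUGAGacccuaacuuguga
mmu-miR-370-3p, chr12:109618305-109618326 (+): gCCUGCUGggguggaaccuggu

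Among the 8 listed pseudogenes are near copies of genes that most cells use for basic tasks. Gm10222 (chr1:24612407-24612700, minus strand) is identical over all 294 bases to mt-Nd4l, the mitochondrial gene for a subunit of respiratory complex I. Its first 60 of 294 bases are shown.
Gm10222: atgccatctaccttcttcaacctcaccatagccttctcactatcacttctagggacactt
Gm12033 (chr11:20335012-20336013, minus strand) matches Gapdh, the glycolytic enzyme, at 1001 of 1002 bases. Counting Gapdh, 64 annotated genes are at least 95% identical to it over at least 90% of its length.

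The 2 listed small nuclear RNAs are diverged copies of spliceosomal RNAs. Gm24145 (chr16:11167105-11167267, minus strand, on the strand of Zc3h7a) is 80.6% identical to Rnu1b1, a U1 RNA, over 165 aligned columns. In its first 30 bases it differs by A7G and C8T, in the stretch by which U1 RNA pairs with the start of introns. Gm22818 (chr15:86212554-86212657, minus strand) is 70.4% identical to Rnu6, a U6 RNA, over 108 aligned columns. Positions count from 1 at the reference RNA's 5′ end, and capitals mark differences between the U1-like pair.
Gm24145: atacttGTctggcaggggagataccatgat
Rnu1b1: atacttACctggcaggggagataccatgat

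Of the 42 noncoding and pseudogene genes, 28 are listed as higher in the knockout (66.7%) and 14 as lower (33.3%). Over all 466 listed genes the shares were 12% higher and 88.0% lower, so the noncoding classes make up 28 of the 56 genes listed as higher and 14 of the 410 listed as lower. Every listed gene had been selected by the authors on this same contrast, at an unadjusted p under 0.05 and a log2 fold change beyond 1 in either direction, so the sign and size of each difference are descriptions. All 4 TEC genes, both small nuclear RNAs and both unprocessed pseudogenes are on the higher side. On that side, too, are 6 of 10 lincRNAs, 5 of 7 antisense RNAs, 5 of 7 processed transcripts and 2 of 3 sense intronic RNAs. Processed pseudogenes lean the other way, with 4 of 6 lower, and the single miscellaneous RNA is lower.

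**Figure D1:**
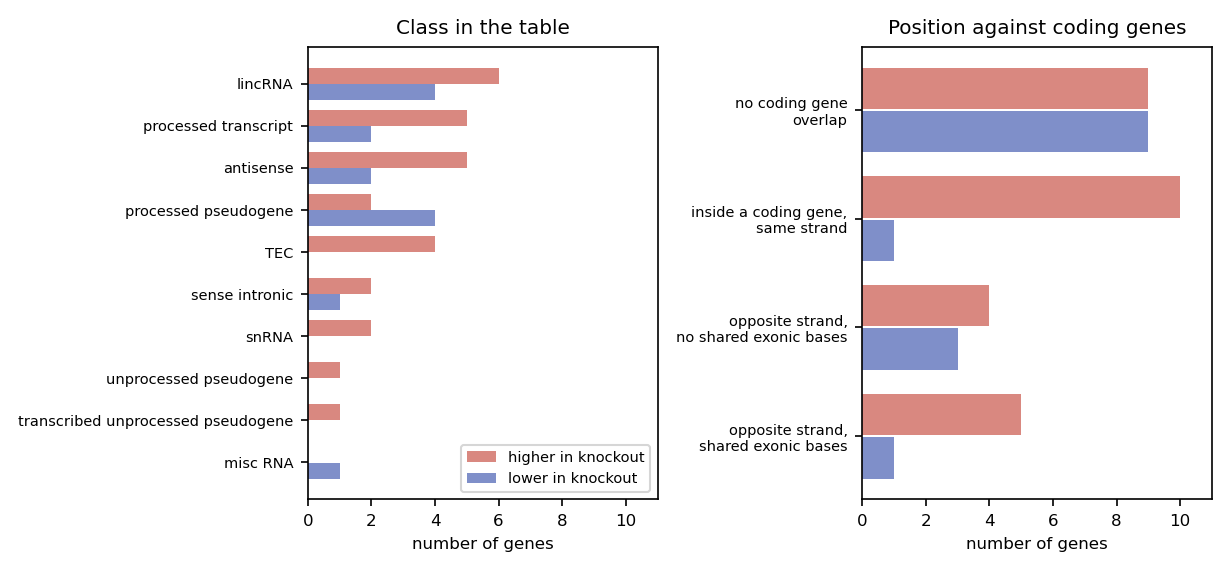
Number of genes listed as higher (red) or lower (blue) in the knockout, by class in the authors' table (left) and by position against protein-coding genes (right). Genes inside or overlapping a coding gene on its own strand number 10 higher and 1 lower. Genes with no coding overlap number 9 on each side.

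In 35 of the 42 genes the 3 knockout values and the 3 control values did not overlap, against 55.4% of all 466 listed genes. In 3 of the 35 (C230031I18Rik, AA413626 and Gm37423) the nearest samples of the groups held the same number of reads and differ by their size factors alone, which leaves 32. Of these 35 genes, 24 were higher (10.1% of all listed genes were higher without overlap) and 11 lower (45.3%). Within the higher side, 85.7% of members were without overlap, close to the 83.9% of all higher listed genes. Within the lower side the shares were 78.6% of members and 51.5% of all lower listed genes. A limma fit on log2(normalised reads + 1) over all 466 genes, with Benjamini-Hochberg adjustment, called 0 of 42 at an adjusted p of 0.05 (0% of all listed genes), and the smallest adjusted p was 0.0533. Its unadjusted p was under 0.05 for 25 of 42 genes, near the 52.6% of all listed genes. Every limma, edgeR and DESeq2 adjustment made here ran only over genes already selected on this contrast, so it is lenient. The authors' deposited table gives no member an adjusted p under 0.05 (3.00% of all listed genes have one), 0.265 being the smallest, and a value over 0.5 for 39 of 42. edgeR on the recovered reads called 0 of 42 at an adjusted p of 0.05 (0% of all listed genes) and 19 of 42 at an unadjusted p under 0.05 (52.8%). DESeq2 on those reads called 2, Gm10125 (adjusted p = 0.0491) and C920009B18Rik (adjusted p = 0.0456), against 13.1% of all listed genes, and gave 24 members no adjusted p. Its unadjusted p was under 0.05 for 14 of 42 genes, against 49.4% of all listed genes.

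These are mostly low-count genes. A normalised read is a read count divided by the size factor of its sample, and these factors lay between 0.979 and 1.03, so values are close to reads. The mean over the 6 samples was under 10 normalised reads for 24 of the 42 genes. All 42 together took 689, 709 and 772 reads in knockout samples 1 to 3 and 507, 547 and 953 in control samples 1 to 3. In 9 genes the lower group had no read in any sample, and in a further 9 it had 1 to 3 reads in all. The depth of the libraries is unknown, since only the listed genes were analysed.

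Median differences on the log2(normalised reads + 1) scale were 2.00 for the 28 higher genes and -2.13 for the 14 lower genes, close to those of all listed genes (1.83 and -2.11). With genes whose lower group had no read set to their bound against 3 reads per library, the medians were 1.56 and -1.74 (1.47 and -1.91 over all listed genes). Which sample was highest was uneven on the lower side. Control 3 gave the top value for 8 of the 14 lower genes, control 2 for 4 and control 1 for 2. Over all 410 lower listed genes the numbers were 224 for control 3, 173 for control 2 and 13 for control 1. Among the 28 higher genes knockout 1 gave the top value for 12, knockout 2 for 6 and knockout 3 for 10.

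The best known of these RNAs are on the lower side. Of 82 symbols in a list of well known noncoding RNA genes, 5 are listed (Rian, Rn7sk, Miat, Dnm3os and Mir124a-1hg). All 5 are lower, as are 88.0% of all 466 listed genes. Rian, an imprinted, maternally expressed RNA of the Dlk1-Dio3 cluster, had 2.95, 16.3 and 0 normalised reads in knockout samples 1 to 3 and 20.6, 38.8 and 92.0 in control samples 1 to 3. The groups did not overlap, with means of 6.43 ± 8.71 and 50.5 ± 37.1 (SD, n = 3 each), a 7.85-fold ratio. The limma difference was -3.40 (SE 1.08, adjusted p = 0.0549), and the authors' deposited table gives an adjusted p of 0.335, the third smallest of the 42. The limma difference was -4.44 without knockout 2 and -2.38 without knockout 3.

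Miat, a nuclear RNA made in neurons (chr5:112213228-112229395, minus strand), had 1.97, 23.5 and 0 normalised reads in knockout and 40.2, 43.6 and 38.2 in control samples. Its 3 controls were alike and each was above every knockout, among which sample 2 stood out. The means of 8.48 ± 13 and 40.7 ± 2.77 (SD, n = 3 each) differ 4.79-fold, and the limma difference was -3.32 (SE 1.09, adjusted p = 0.0578). It was -4.59 without knockout 2 and -2.29 without knockout 3.

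Mir124a-1hg, host of the neuronal microRNA miR-124, had 0, 3.06 and 0 normalised reads in knockout and 8.83, 8.73 and 8.81 in control samples. The knockout total was 3 reads against 27 in controls, again with the reads in knockout 2 alone. Gm15816, an antisense RNA within Ank1, the erythrocyte ankyrin gene, likewise had its knockout reads in sample 2 alone, with 0, 2.04 and 0 in knockout and 6.87, 7.76 and 7.83 in control samples. Both had a limma adjusted p of 0.0533.

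3110039I08Rik, which RefSeq names Mir100hg, had 2.95, 1.02 and 1.01 normalised reads in knockout and 3.92, 6.79 and 18.6 in control samples. Its groups did not overlap, though knockout 1 and control 1 lay less than 1 normalised read apart (limma difference -1.85, SE 0.81, adjusted p = 0.0908). Dnm3os, an RNA antisense to the dynamin gene Dnm3 and known from mesenchymal cells, was at 0 in all 3 knockout samples and at 0, 1.94 and 16.6 in control samples. Control 3 held nearly all of its 19 reads, and control 1 overlapped with the knockouts. Against a floor of 3 reads per library the control mean was at least 2.05-fold higher (limma difference -1.90, SE 0.99, adjusted p = 0.121).

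**Figure D2:**
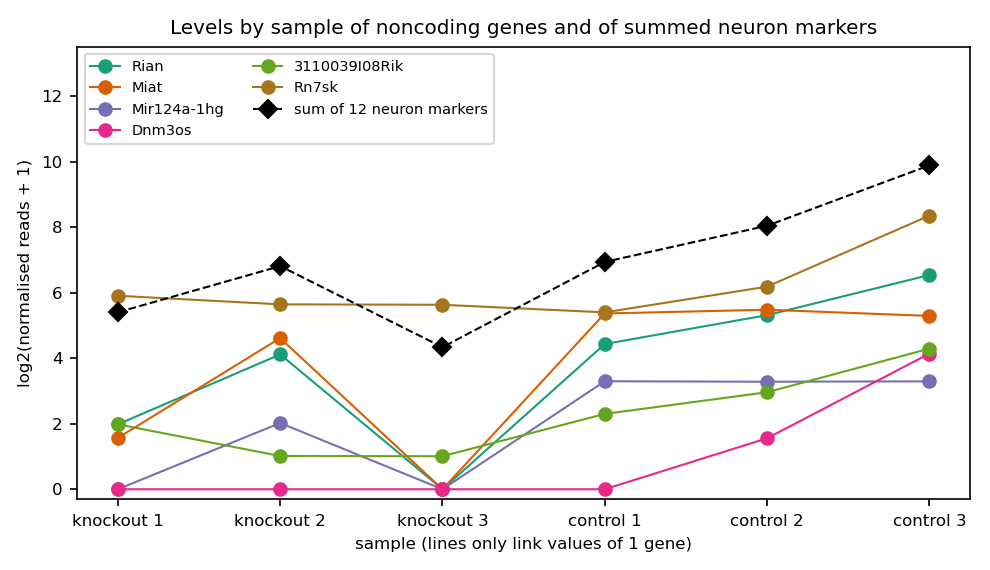
Level in each sample, as log2(normalised reads + 1), of the 5 listed well known noncoding RNAs, the host 3110039I08Rik and the sum of the 12 listed neuron markers (black diamonds); lines link the values of 1 gene and imply no order. Rian, Miat and Mir124a-1hg are highest among the knockouts in sample 2, as is the marker sum, whereas Dnm3os has reads in controls 2 and 3 alone.

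Markers of other cells differed between these samples as well, and every listed one is lower, as are 88.0% of all listed genes. Of 24 neuron markers 12 are listed, all lower, and their summed level was 41.3, 111 and 19.2 normalised reads in knockout and 122, 263 and 945 in control samples, with 0 of the 12 absent from every knockout. Rian, Miat and Mir124a-1hg were highest among knockouts in the sample with the highest neuron sum and at 0 in the sample with the lowest. The neuron sum and Rian were both highest in control 3, whereas Miat and Mir124a-1hg were level across controls. For fibroblast and mural cells 5 of 16 markers are listed, all lower, summing to 46.5 to 92.4 in knockout and 142 to 569 in control samples, highest in control 2, where Dnm3os had 1.94. Of 6 erythroid markers 2 are listed, both lower, at 0 to 28.6 in knockout and 28.5 to 268 in control samples, beside the Ank1 antisense RNA Gm15816. Choroid plexus and ependyma markers, 7 of 14 listed, had the highest sums, 2034, 886 and 590 in knockout and 3487, 19196 and 362 in control samples, so control 3 was below every knockout. The lists of astrocytes (3 of 9 listed), endothelial cells (2 of 7) and oligodendrocytes (1 of 7) summed to 3.04 to 22.5, 48.6 to 70.8 and 161 to 295 in knockout and 10.8 to 143, 89.3 to 236 and 225 to 834 in control samples. None of the listed members of these lists was at 0 in every knockout. The part of these cells in the differences was not tested, and in such bulk samples fewer cells of a type and less RNA per cell cannot be told apart.

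Rn7sk, the 7SK RNA that holds the transcription elongation factor P-TEFb inactive (chr9:78175303-78175633, minus strand), had 59.0, 49.0 and 48.6 normalised reads in knockout and 41.2, 71.8 and 326 in control samples. Control 1 was below every knockout, and control 3 alone set the difference in means of 52.2 ± 5.89 and 146 ± 156 (SD, n = 3 each). The limma difference was -0.92 (SE 0.79, adjusted p = 0.281), and it ranged from -1.54 to -0.07 when each sample was left out in turn, the value nearest 0 being that without control 3. With controls 2 and 3 both left out it was 0.33, in the other direction. Per kilobase of listed length Rn7sk had the highest mean over the 6 samples of the 42 genes, 299.8 normalised reads per kilobase, followed by Gm26887 at 103.7 and Gm14269 at 95.2. A stretch of 241 of its 331 bases, 72.8%, is identical to Gm24447, another gene of the miscellaneous RNA class, so reads could be split between them.

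A further 2 lincRNAs and 1 sense intronic RNA are on the lower side. Gm26887, a spliced RNA near Nanos3 (chr8:84192774-84197667, minus strand), had 30.5, 31.7 and 34.4 normalised reads in knockout and 35.3, 106 and 103 in control samples. Control 1 lay just above the knockouts and the other controls well above them (2.53-fold, limma difference -1.16, SE 0.66, adjusted p = 0.146). 2210008F06Rik (chr11:77489854-77491409, plus strand) was at 0 in all knockout samples and at 3.92, 7.76 and 5.87 in control samples, at least 1.94-fold higher in controls (limma adjusted p = 0.0533). Gm16540, within 4933434E20Rik on its strand, had 0.983, 0 and 0 in knockout and 3.92, 4.85 and 6.85 in control samples. Both genes were separated without overlap, on 18 and 17 reads in all 6 samples together.

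The 4 lower processed pseudogenes range from a near-perfect copy to much diverged ones. Gm14269 (chr2:170463514-170463819, minus strand) had 1.97, 18.4 and 22.3 normalised reads in knockout and 92.2, 24.2 and 15.7 in control samples. Control 1 was far above the rest and control 3 below 2 of the knockouts, so the groups overlapped (limma difference -1.62, SE 1.00, adjusted p = 0.161). The difference was -0.68 without knockout 1 and -0.90 without control 1. Gm12033, the Gapdh copy, was at 0 in all knockout samples and at 1.96, 1.94 and 8.81 in control samples, at least 1.40-fold higher in controls.

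Gm19178 (chr9:18298833-18300651, minus strand, opposite to Chordc1), 82.8% identical to Apbb1, had 18.7, 16.3 and 20.2 normalised reads in knockout and 26.5, 63.0 and 32.3 in control samples. Gm18724 (chr16:11046904-11048290, plus strand, opposite to Litaf), 71.1% identical to Zc3h15, had 0.983, 1.02 and 4.05 in knockout and 5.89, 13.6 and 15.7 in control samples. Both were lower in every knockout than in any control, with limma differences of -1.01 (SE 0.66, adjusted p = 0.181) and -2.12 (SE 0.79, adjusted p = 0.0668).

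**Figure D3:**
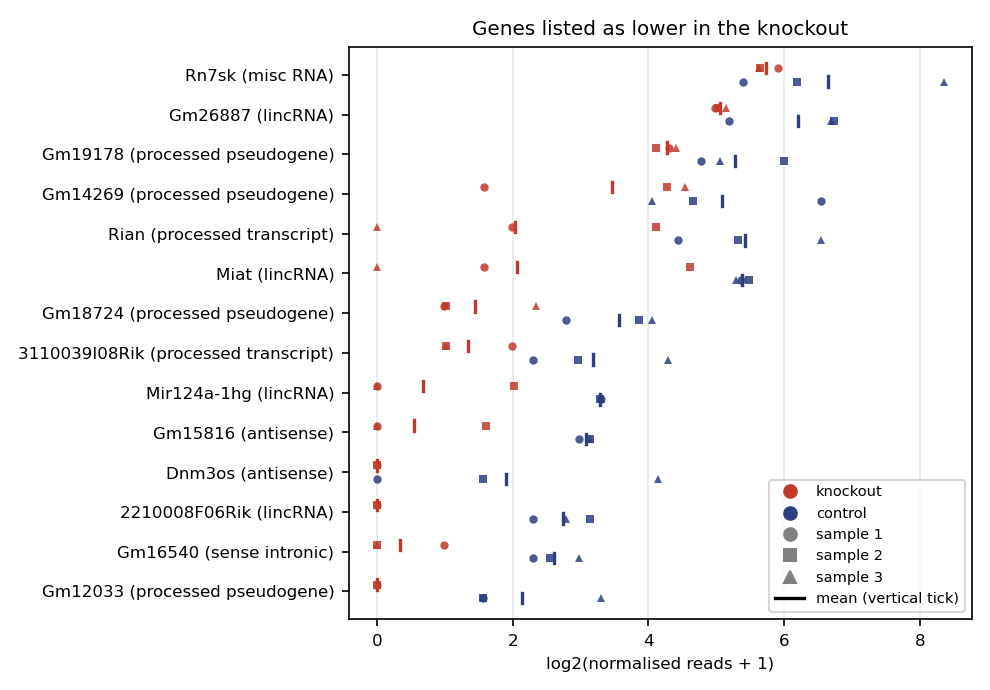
Level of the 14 genes listed as lower, as log2(normalised reads + 1), in 3 knockout (red) and 3 control (blue) samples; marker shape gives the sample number and vertical ticks the group means. Groups overlap for Rn7sk, Gm14269 and Dnm3os and are apart for the other 11.

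On the higher side the most abundant gene was Gm27008, a spliced RNA that runs across Kcna3, a potassium channel gene, on the other strand (chr3:106934382-107093894, minus strand). It had 104, 75.6 and 118 normalised reads in knockout and 41.2, 18.4 and 67.5 in control samples. The lowest knockout was above the highest control, and the means of 99.4 ± 21.8 and 42.4 ± 24.6 (SD, n = 3 each) differ 2.34-fold (limma difference 1.37, SE 0.67, adjusted p = 0.109). Gm15265, opposite to the lipid kinase gene Pi4kb and sharing exonic bases with it (chr3:94998800-95004869, minus strand), had 56.0, 42.9 and 52.6 in knockout and 31.4, 16.5 and 21.5 in control samples. It too was apart between groups, with a 2.18-fold ratio of means (limma difference 1.13, SE 0.63, adjusted p = 0.137).

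The other 3 higher antisense RNAs were rarer, with knockout means of 5.03 to 9.04 normalised reads. A230020J21Rik, opposite to the heme exporter gene Flvcr1, was 6.94-fold higher in the knockout mean and apart between groups. Gm28180, within Smg6 on the other strand, and Gm11713, within Pitpnc1 on the other strand, had no read in any control, and were at least 1.72-fold and 1.92-fold higher. Gm28180 had 4.05 to 6.13 normalised reads in each knockout. Gm11713 had 11.8, 5.11 and 0, so knockout 3 overlapped with the controls.

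Among the higher processed transcripts, Gm10125, opposite to Zeb1 and sharing exonic bases with this zinc finger repressor gene (chr18:5491503-5593505, minus strand), had 49.2, 66.4 and 39.5 normalised reads in knockout and 15.7, 11.6 and 20.5 in control samples. Each knockout was well above each control, a 3.24-fold ratio of 51.7 ± 13.6 to 16.0 ± 4.46 (SD, n = 3 each). Its limma difference was 1.64 (SE 0.64, adjusted p = 0.0749), and its adjusted p in the authors' deposited table, 0.265, is the smallest of the 42. C030005K06Rik, opposite to Tnfaip8 (chr18:50042730-50053844, minus strand), had 21.6, 20.4 and 33.4 in knockout and 11.8, 5.82 and 10.8 in control samples, 2.66-fold apart and without overlap (limma difference 1.34, SE 0.68, adjusted p = 0.118).

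1700012D14Rik (chr7:111083064-111122684, minus strand) lies 34 bases from Eif4g2, a translation initiation factor gene. It had 40.3, 67.4 and 81.9 normalised reads in knockout and 22.6, 23.3 and 47.0 in control samples. Control 3 exceeded knockout 1, and the 2.04-fold ratio was within the overlap of the groups (limma difference 1.03, SE 0.65, adjusted p = 0.168; exact two-sided permutation p = 0.2). 1810059C17Rik, opposite to Mllt10, and Gm37423, within Dennd1b on its strand, were rarer, with knockout means of 7.74 and 5.29 and control means of 0.979 and 0.326 normalised reads.

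The 6 higher lincRNAs include 2 with a single high knockout. Gm10339 (chr14:7374667-7412375, minus strand) had 7.86, 49.0 and 15.2 normalised reads in knockout and 8.83, 3.88 and 5.87 in control samples. Gm26870 (chr9:3000282-3038313, minus strand), at the start of chromosome 9, where it overlaps 9 predicted coding genes, had 4.92, 11.2 and 42.5 in knockout and 6.87, 2.91 and 3.91 in control samples. Knockout 2 was high for the first and knockout 3 for the second, and in both genes knockout 1 was below control 1 (exact two-sided permutation p = 0.2 each). The limma difference of Gm10339 was 1.48, and 0.79 without knockout 2. That of Gm26870 was 1.46, with 0.68 without knockout 3 and 2.11 without knockout 1.

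Gm37800, near the homeobox gene Hlx (chr1:184610280-184629473, minus strand), had 14.7, 13.3 and 42.5 normalised reads in knockout and 10.8, 1.94 and 6.85 in control samples. Its groups were apart, with knockout 3 the highest (3.6-fold, limma difference 1.72, SE 0.83, adjusted p = 0.108). Gm2511 and Gm44037 had 6.35-fold and 7.22-fold higher knockout means, on control means of 1.95 and 1.31 normalised reads. 1810006J02Rik had no read in any control and 16 reads in the knockouts, at least 1.82-fold higher (limma adjusted p = 0.0533). All 3 of these rarer lincRNAs were apart between groups.

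TEC genes and sense intronic RNAs lie inside or overlap coding genes on their strand, and 6 of these 7 are higher. 6720464F23Rik, a single-exon TEC gene within Rabgap1l (chr1:160608955-160612450, minus strand), had 10.8, 7.15 and 9.11 normalised reads in knockout and 0.981, 0 and 0 in control samples. It had the largest limma difference of the higher genes, 2.98 (SE 0.72, adjusted p = 0.0533), on 27 reads in knockouts and 1 in controls. A530041M06Rik, a sense intronic RNA in Lrig2 (chr3:104499320-104501607, minus strand), had 24.6, 18.4 and 11.1 in knockout and 3.92, 8.73 and 4.89 in control samples, 3.08-fold apart and without overlap (limma difference 1.47, SE 0.72, adjusted p = 0.109).

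The other 3 TEC genes, C230031I18Rik in Ank2, Gm43627 in Fam114a1 and Gm48543 in Nova1, took 12 to 19 reads in the knockouts and 0 or 1 in the controls. Gm44017, a sense intronic RNA in Borcs5, took 20 reads in the knockouts and 1 in the controls. In all 4 every knockout exceeded every control, C230031I18Rik by its size factors alone.

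The small nuclear RNA copies were rare as well. Gm24145, the U1-like copy, had 6.88, 5.11 and 6.07 normalised reads in knockout and 0.981, 0 and 0.978 in control samples (limma difference 2.15, SE 0.71, adjusted p = 0.0578). Gm22818, the U6-like copy, had 5.90, 3.06 and 4.05 in knockout and none in control samples, at least 1.48-fold higher. Both were higher in each knockout than in each control, on totals of 18 and 13 reads in the knockouts against 2 and 0 in the controls.

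Of the pseudogenes, 4 are on the higher side. C920009B18Rik, a transcribed copy on the strand of Raet1e, a gene for a ligand of the activating receptor NKG2D (chr10:22306702-22321765, plus strand), had 44.2, 34.7 and 55.6 normalised reads in knockout and 16.7, 12.6 and 10.8 in control samples. The lowest knockout was above the highest control by more than either group's SD, with means of 44.9 ± 10.5 and 13.4 ± 3.03 (n = 3 each), 3.36-fold apart. Its limma difference was 1.67 (SE 0.64, adjusted p = 0.0712), and the authors' deposited table gives an adjusted p of 0.282.

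Gm10222, the mt-Nd4l copy, had 48.2, 30.6 and 31.4 normalised reads in knockout and 18.6, 18.4 and 16.6 in control samples, apart between groups and 2.05-fold different in means. Its limma difference was 0.97 (SE 0.63, adjusted p = 0.178), and none of its 294 bases tells its reads from those of the mitochondrial gene. Gm15157, 71.1% identical to the ribosomal protein gene Rps6 (chrX:155185679-155186380, plus strand), had 10.8, 19.4 and 26.3 in knockout and 6.87, 0.970 and 7.83 in control samples (limma difference 1.86, SE 0.84, adjusted p = 0.0959; 1.17 without control 2). AA413626, 74.4% identical to the ribosomal protein gene Rpl17 and within Thoc5 on its strand, had 1.97, 24.5 and 12.1 in knockout and 1.94 to 1.96 in control samples. Gm15157 was apart between groups, whereas AA413626 had 2 reads in knockout 1 and in each control.

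**Figure D4:**
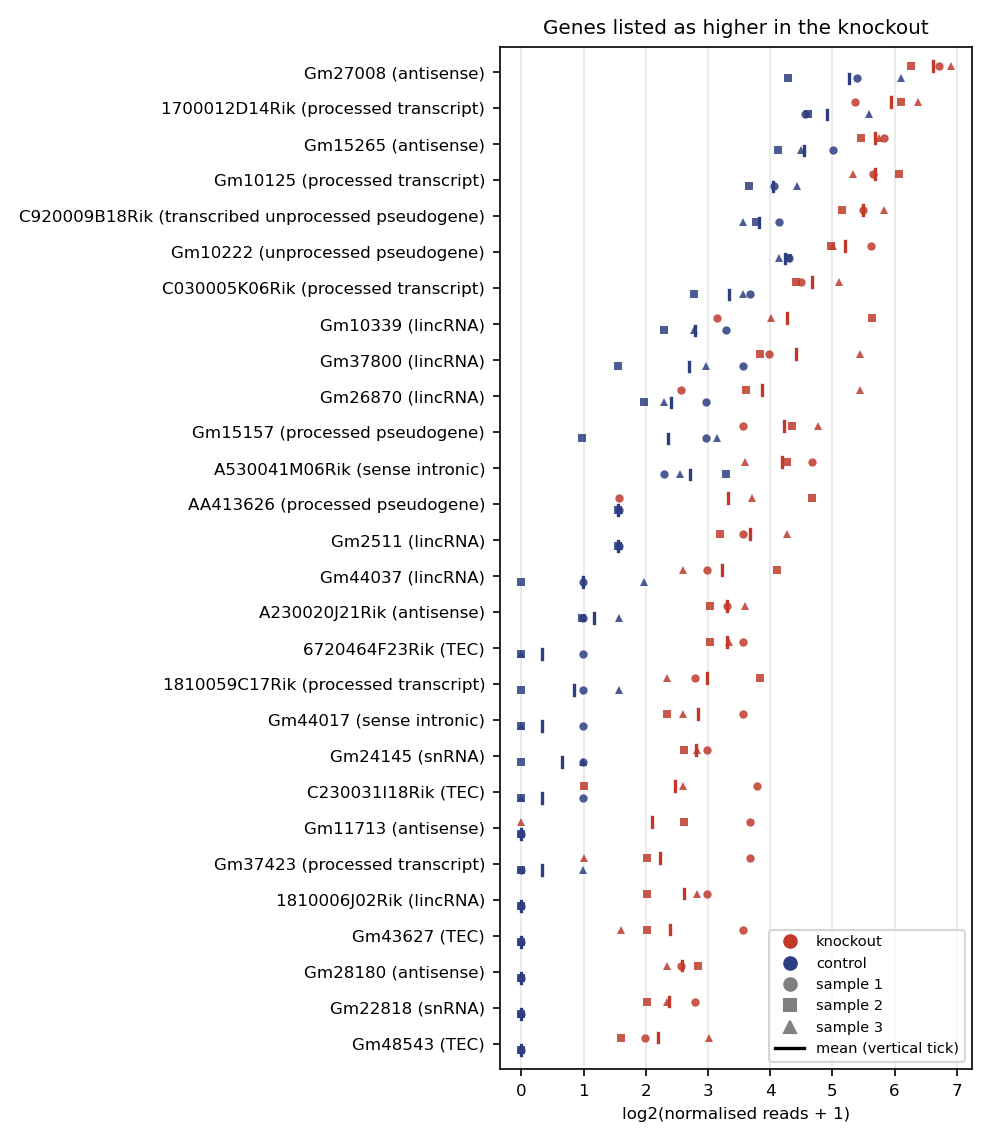
Level of the 28 genes listed as higher, as log2(normalised reads + 1), in 3 knockout (red) and 3 control (blue) samples; marker shape gives the sample number and vertical ticks the group means. Groups overlap for 1700012D14Rik, Gm10339, Gm26870 and Gm11713 and are apart for the other 24; 6 genes have all controls at 0.

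Position against coding genes is part of what defines some classes, such as antisense, sense intronic and lincRNA. Counts by position therefore partly restate the classes. Of the 28 higher genes 10 lie inside or overlap a coding gene on its own strand, 8 of them with a single exon. Another 9 lie opposite a coding gene, 5 of these sharing exonic bases with it. Of the 14 lower genes 1 lies inside or overlaps a coding gene on its strand, 4 lie opposite one and 9 overlap none. Single-exon models number 13 of 28 higher and 4 of 14 lower genes. The median GC content of the longest transcript of each gene was 43.7% for higher and 52.8% for lower genes.

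The 10 higher genes on the strand of a coding gene had knockout means of 4.02 to 44.9 and control means of 0 to 13.4 normalised reads. None of the coding genes that any of the 42 genes overlap is itself listed (0, for 24 members with an overlap), and 1 nearest coding neighbour is, Nefh beside AA413626. The strand setting of the authors' counting is not stated in the labels, so reads of an antisense RNA and of its partner cannot be told apart, nor can intronic RNA of a host gene and a single-exon gene inside it. A run of at least 10 A lies in the longest transcript of 5 higher genes, among them 1700012D14Rik with 22. The same holds for 2 lower genes, Rian with 15 and Dnm3os with 12.

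No member lies close to either edited locus. The nearest on the chromosome of Cx3cr1 is Rn7sk, 41.7 Mb away, and the nearest on that of Piezo1 is Gm26887, 38.3 Mb away.

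**Figure D5:**
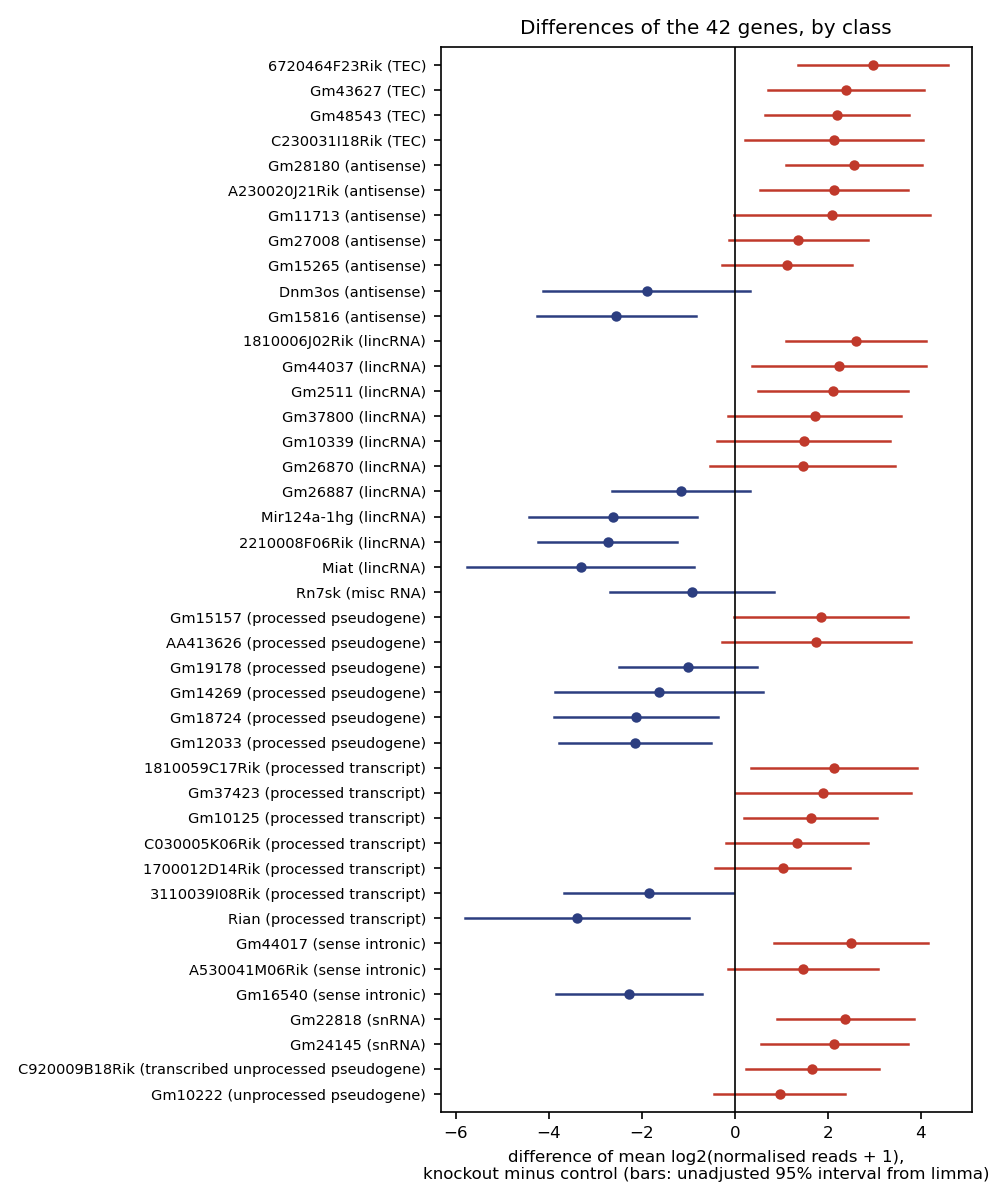
Difference of mean log2(normalised reads + 1), knockout minus control, for each of the 42 genes grouped by class (points), with the unadjusted 95% interval from limma (bars); red is higher and blue lower in the knockout. Differences run from -3.40 for Rian to 2.98 for 6720464F23Rik, and 17 of the 42 intervals include 0.

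With 3 samples against 3 an exact permutation test of a single gene cannot give a p under 0.1, and genes whose groups do not overlap reach that value. Floors cover counting error only. Left out, control 1 had the most effect on the count of calls: without it limma called 16 of the 42 genes (196 of all 466), 8 higher and 8 lower, among them Rian, Gm26887, C920009B18Rik and 6720464F23Rik. Without control 3 it called 4 (36 of 466), namely 2210008F06Rik, Gm28180, Gm22818 and Gm12033.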

How the data were processed

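Per the labels, poly(A) RNA was read as 150 base pairs on a NovaSeq. The submitters' processing notes name HISAT2, RSEM 1.2.30, cutadapt 1.11, the build GRCm38, R 3.6.1 and DESeq2 in no stated order. The authors' deposited values are normalised read counts, a signal of reads over a size factor. Once each sample's size factor was recovered, 100% of the values came out as whole reads at a tolerance of 1e-06. The log2 fold change, the p-value and its adjusted form, over 19107 genes, were deposited by the authors. limma 3.58.1 (R 4.3.3), with its trend option, was fitted to log2(value + 1) of all 466 listed genes, with a pseudocount of 1, no filter and a threshold of 0.05. Fold ratios are ratios of group means; limma differences understate the change of low genes. As alternatives, the recovered reads went through DESeq2 1.42.0 and the quasi-likelihood test of edgeR 4.0.16, keeping the recovered size factors. The tests were first run on simulated data. Groups with no read were set at a floor of 3 reads per library. Exons and coordinates came from GENCODE M21, sequences were compared with BLAST+ 2.17.0 and Biopython 1.88, and figures drawn with matplotlib 3.10.9.

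The value in every sample was given for the 12 most abundant higher genes, the 8 most abundant lower genes and the most abundant of each class (22 genes), and also for some rarer genes, chosen after their values were seen. Members and gene lists were chosen with earlier results of these data known. The list of well known noncoding RNAs also holds the coding gene Foxf1, which is not listed. Same-numbered samples did not deviate together (correlations of -0.04, -0.04 and 0.07), so numbers were not used as pairs. No 2 replicates agreed within sampling noise (chi-square per degree of freedom at least 12.1). Some sequence comparisons are not reported here.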

Additional observations from a re-analysis of the deposited data

How the results depend on the processing

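limma called 0 of the 42 genes, and also 0 with a pseudocount of 5, with genes of a mean of at least 10 only, without size factors, with edgeR and with the replicate block. It called 12 with a pseudocount of 0.5 (120 of all 466), and DESeq2 called 2. With controls 2 and 3 left out together, 2 were called (54 of 466), the lone control being assumed to vary like the knockouts. Leaving out 1 sample at a time gave 0 to 16 calls. The median of higher genes (2.00) was 2.37 with a pseudocount of 0.5, 1.06 with 5, 1.47 for genes of a mean of at least 10, 2.66 with edgeR, 2.76 with DESeq2 and 1.75 to 2.11 with 1 sample left out, lowest without control 2. The median of lower genes (-2.13) was -2.70 with a pseudocount of 0.5, -1.09 with 5, -1.39 for genes of a mean of at least 10, -2.71 with edgeR, -2.76 with DESeq2 and -2.47 to -1.99 with 1 sample left out. The count of genes whose groups do not overlap (35) was 13 among the 18 genes with a mean of at least 10, and 35 to 39 with 1 sample left out. Rn7sk turned from -0.92 to 0.33 with controls 2 and 3 left out together. The cause of these shifts was not tested. Of the other values of the 22 named genes across settings, 294 kept direction and side of the threshold and 9 came under it. With the replicate number as a block the medians were 2.00 and -2.13 and the calls 0 (4 of 466).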
